A study of Bos taurus with 52 samples.

Results

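The genes described here are imprinted genes with known roles in fetal and placental growth, taken as the rows of the count table that carry 1 of 10 listed symbols. The table held 9 of them, PEG10, MEST, DLK1, PLAGL1, SNRPN, MEG3, CDKN1C, PHLDA2 and GRB10, among 31651 named genes. PEG3, the remaining symbol on the list, was not analysed here. Gene expression was measured by RNA sequencing of messenger RNA in cattle (Bos taurus), in heifers whose fertility had been graded in 3 classes: HF for high fertile animals, SF for subfertile and IF for infertile ones. Endometrium, the lining of the uterus, came from 25 animals in 5 groups of 5. Groups NP-HF, NP-SF and NP-IF were non-pregnant animals of each class, and groups P-HF and P-SF were pregnant ones of the HF and SF classes. Conceptuses, each an embryo with its elongating extraembryonic membranes, gave 27 libraries: 10 from SF recipients, 10 called long from HF recipients and 7 called short from HF recipients. Pregnant endometrium and conceptuses were collected on day 17, while no day was found for the non-pregnant animals. The labels name no drug, transgene or other treatment, and no age.

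An imprinted gene is transcribed mainly from the allele inherited from 1 parent, because methylation laid down in the germ line differs between the parental alleles. Paternally expressed genes such as PEG10, MEST and DLK1 tend to promote the growth of the fetus and placenta, and maternally expressed genes such as CDKN1C, PHLDA2 and GRB10 tend to restrain it. In ruminants the conceptus elongates as a filament of trophoblast before it implants, and many of the same genes are also transcribed in adult uterine tissue. Counts per gene do not tell the parental alleles apart. The listed genes lie in a few clusters. In the reference annotation PEG10 stands between SGCE and PPP1R9A, MEG3 between DLK1 and RTL1, and MEST next to COPG2. PHLDA2 and CDKN1C are separated there by SLC22A18 alone, and SNRPN stands next to SNURF. No source used here says whether counting used strand or how reads of neighbouring genes were assigned. Reads from such neighbours can thus have been shared, SNRPN and SNURF among them.

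Libraries held 17077635 to 27292222 counts in endometrium and 20549492 to 46966995 in conceptuses. The 27 conceptuses came from 19 recipients, and 8 recipients gave a pair. Descriptions of 22 conceptus samples name another animal or length than their titles, and titles were used because the columns carry them. Over all genes, 2 pregnant endometrium libraries (P-HF replicate 1, P-SF replicate 5) lay with the other fertility class. Conceptus sample sheet, read from the descriptions, was a covariate in every conceptus fit, and the second of the 2 sheets held no HF long library. Trophoblast markers summed to 21260 to 91750 CPM (read counts scaled to library size) in conceptuses, and no endometrium library had a sum over 580. Transcripts typical of uterine cells summed to at most 32.4 CPM in any conceptus and to at least 4107 CPM in endometrium. P-values over conceptuses measure only the spread between these samples, since some share a recipient.

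**Figure D1:**
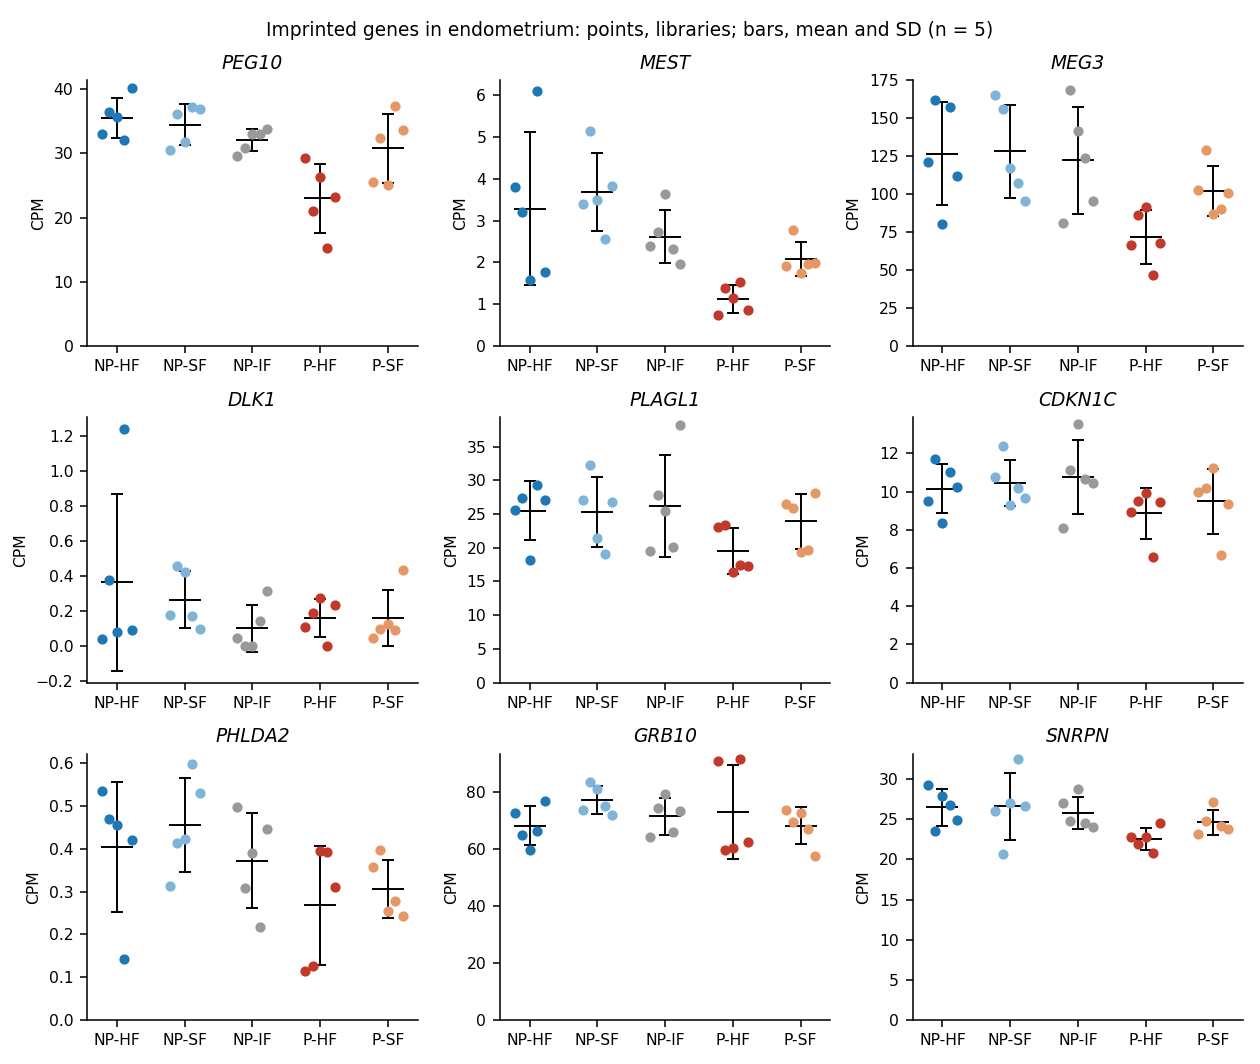
Normalised read count (CPM, linear axes) of the 9 imprinted genes in endometrium by group. Points are the 5 libraries of a group, long bars their mean and whiskers the SD. All P-HF points of PEG10 and of MEST lie below all NP-HF points, whereas MEG3 overlaps between these groups.

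In the endometrium of HF heifers, 3 of the 8 imprinted genes tested fell with pregnancy and none rose. They were the paternally expressed MEST and PEG10 and the maternally expressed non-coding RNA MEG3. Over all genes tested in P-HF against NP-HF, 10.6% fell and 10.2% rose (edgeR quasi-likelihood test, adjusted p under 0.05). The median log2 fold change of the 8 was -0.47, and that of all genes was -0.01. DLK1 had too few counts to be tested in any comparison. These are bulk tissues, in which fewer cells of a type and less RNA per cell cannot be told apart.

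MEST encodes an enzyme of the alpha/beta hydrolase fold and is expressed from the paternal allele. Its 5 NP-HF libraries gave 3.79, 3.20, 1.57, 6.09 and 1.77 CPM. Its 5 P-HF libraries gave 0.733, 1.38, 1.14, 1.52 and 0.857 CPM. Every P-HF library was below every NP-HF library, although the lowest NP-HF library and the highest P-HF library lay close together. On the log2 scale MEST fell by 1.54 ± 0.31 (SE, n = 5 and 5), with an adjusted p of 0.001 in edgeR's quasi-likelihood test. Its counts were low, between 13 and 35 per P-HF library, so that its fold change is less precise than those of the others that fell.

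PEG10 is derived from a retrotransposon and is needed for the placenta to form in mice. NP-HF libraries gave 33.0, 36.5, 35.7, 32.1 and 40.2 CPM. P-HF libraries gave 29.3, 21.0, 26.3, 15.2 and 23.2 CPM. The groups did not overlap, and P-HF replicate 4 was the lowest of all 25 libraries. PEG10 fell by 0.63 ± 0.13 on the log2 scale (SE, n = 5 and 5, adjusted p = 0.0015, edgeR).

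MEG3 is a long non-coding RNA expressed from the maternal allele of the cluster that also holds DLK1. Its NP-HF libraries gave 121.3, 161.9, 80.2, 157.7 and 112.0 CPM. Its P-HF libraries gave 66.7, 86.1, 91.2, 46.4 and 68.0 CPM. The groups overlapped, since NP-HF replicate 3 lay below 2 of the P-HF libraries. MEG3 fell by 0.82 ± 0.22 on the log2 scale (SE, n = 5 and 5, adjusted p = 0.0083, edgeR). All 3 genes kept their call in each of the 16 alternative settings tried for this comparison. Without P-HF replicate 1 and P-SF replicate 5 the log2 fold changes were -1.42 for MEST, -0.73 for PEG10 and -0.80 for MEG3.

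The other 5 genes tested did not pass in P-HF against NP-HF. PLAGL1, a zinc finger transcription factor expressed from the paternal allele, was at 25.5 ± 4.34 CPM in NP-HF and 19.5 ± 3.42 CPM in P-HF (SD, n = 5 each). SNRPN, which encodes a small nuclear ribonucleoprotein, was at 26.5 ± 2.28 and 22.6 ± 1.36 CPM. Their log2 fold changes were -0.39 ± 0.18 and -0.23 ± 0.09 (SE), with adjusted p of 0.14 and 0.081 in edgeR. CDKN1C, an inhibitor of cyclin-dependent kinases, was at 10.2 ± 1.298 CPM in NP-HF and 8.87 ± 1.33 CPM in P-HF. GRB10, an adaptor that inhibits signalling of the insulin receptor, was at 68.1 ± 6.76 and 72.9 ± 16.7 CPM. In P-HF it split into libraries at 90.8 and 91.5 CPM and 3 libraries between 59.7 and 62.5 CPM. PHLDA2, a maternally expressed restraint on placental growth, was at or below 0.598 CPM in every endometrium library, with 2 to 14 counts.

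In SF heifers none of the 8 genes tested passed for pregnancy, where 3.18% of all genes rose and 0.887% fell. All 8 fold changes were negative, with a median of -0.17 on the log2 scale against -0.01 over all genes. MEST gave 3.41, 5.15, 3.49, 2.56 and 3.82 CPM in the NP-SF libraries and 1.92, 2.78, 1.75, 1.95 and 1.99 CPM in the P-SF libraries. Only P-SF replicate 2 reached the NP-SF range. Its log2 fold change was -0.83 ± 0.30 (SE, adjusted p = 0.14, edgeR). MEG3 had a log2 fold change of -0.33 ± 0.21 and PEG10 one of -0.16 ± 0.13 (SE, adjusted p = 0.46 and 0.58, edgeR), and both overlapped widely between the groups.

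Whether the pregnancy difference itself differed between HF and SF was tested as an interaction, and 0 of the 8 genes passed, with 0.0051% of all genes passing. PEG10 alone of the 8, and 1336 genes in all, had an unadjusted p below 0.05. Its interaction was 0.46 ± 0.19 on the log2 scale (SE, adjusted p = 0.65, edgeR). Within pregnant endometrium, 0 of the 8 passed in P-SF against P-HF, where 0% of all genes did and 1984 had an unadjusted p under 0.05. P-SF libraries of PEG10 gave 25.6, 32.4, 25.0, 37.4 and 33.7 CPM, so that 2 of them lay within the P-HF range. MEG3 gave 103.0, 128.8, 87.0, 90.0 and 100.4 CPM in P-SF and overlapped with P-HF in the same way. For MEST every P-SF library was above every P-HF library. The log2 fold changes of P-SF against P-HF were 0.88 ± 0.31 for MEST, 0.42 ± 0.13 for PEG10 and 0.51 ± 0.21 for MEG3 (SE, adjusted p = 0.35, 0.27 and 0.44, edgeR). DESeq2 called 95 genes over the whole table in this comparison and none of the 8.

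Among non-pregnant heifers the imprinted genes had similar means in the fertility classes, and no test passed. NP-SF against NP-HF, NP-IF against NP-HF and NP-IF against NP-SF each had 0 of 8 called and 0% of all genes called. Unadjusted p under 0.05 was found for 709, 1070 and 784 genes, and DESeq2 called 4, 2 and 10. The log2 fold changes of the 8 spanned -0.04 to 0.18, -0.33 to 0.09 and -0.50 to 0.05 in these comparisons. PEG10 was at 35.5 ± 3.18 CPM in NP-HF, 34.5 ± 3.14 in NP-SF and 32.1 ± 1.76 in NP-IF (SD, n = 5 each). MEG3 was at 126.6 ± 33.9, 128.3 ± 30.7 and 122.2 ± 35.2 CPM in the same order.

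Ordered by mean, MEST stood highest in NP-SF (3.69 ± 0.94 CPM), followed by NP-HF (3.29 ± 1.83), NP-IF (2.61 ± 0.63), P-SF (2.08 ± 0.40) and P-HF (1.13 ± 0.34; SD, n = 5 each). Each neighbour in that order up to P-SF lay within 1 SD of the next higher group, and P-HF was apart from P-SF without overlap. PEG10 ran from NP-HF through NP-SF, NP-IF and P-SF (30.8 ± 5.35 CPM) down to P-HF (23.0 ± 5.36 CPM). DLK1, a transmembrane protein related to NOTCH ligands, had 117 counts over the 25 endometrium libraries and 1.24 CPM at most, in NP-HF replicate 4.

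**Figure D2:**
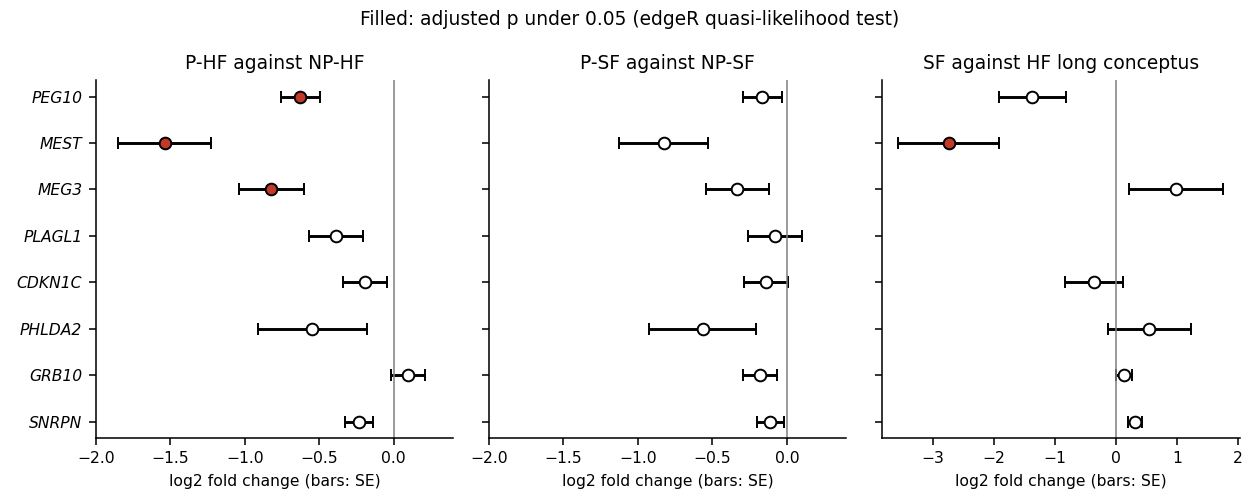
Log2 fold changes (points) with their SE (bars) of the imprinted genes tested in 3 comparisons; filled points passed an adjusted p of 0.05, and the third panel has a wider axis. MEST, PEG10 and MEG3 are filled in P-HF against NP-HF, none is in P-SF against NP-SF, and MEST alone is in SF against HF long conceptuses.

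Stromal markers moved with the pregnancy difference. Of 10 genes of fibroblasts and their matrix, 7 fell in P-HF against NP-HF, where 10.2% of all genes rose and 10.6% fell. The 10 had a median of -0.74 on the log2 scale. Their summed level was 13860 to 26550 CPM in NP-HF (median 15520) and 5410 to 9165 CPM in P-HF (median 8160). In SF heifers 0 of the 10 passed, where 3.18% of all genes rose and 0.887% fell. The sums were 11910 to 17700 CPM in NP-SF and 10660 to 13370 CPM in P-SF. None of the 10 was at 0 in any endometrium library. Of 8 uterine epithelial markers, 2 rose in P-HF against NP-HF, CDH1 and CLDN4, and the sums were 939 to 1179 CPM in NP-HF and 1350 to 1612 CPM in P-HF. Of 7 endothelial markers 2 fell, PECAM1 and TIE1, with sums of 458.2 to 575.6 CPM in NP-HF and 309.0 to 549.2 CPM in P-HF. Of 8 immune markers CD68 and AIF1 rose and CD8A fell, with sums of 83.1 to 129.1 and 99.6 to 144.9 CPM. Over the 25 libraries PEG10 had r = 0.764 with the stromal, r = 0.749 with the endothelial and r = -0.726 with the uterine epithelial markers, as a description. The uterine epithelial value was -0.67 for MEST, -0.636 for MEG3, -0.533 for PLAGL1 and -0.477 for SNRPN. For CDKN1C, GRB10 and PHLDA2 it was -0.454, -0.346 and -0.294. With the stromal markers MEG3 had r = 0.827, MEST 0.669, PLAGL1 0.644 and CDKN1C 0.64. SNRPN, PHLDA2 and GRB10 had 0.33, 0.218 and -0.1 with them. With 6 smooth muscle markers PLAGL1 had r = 0.673, CDKN1C 0.586, MEST 0.554, MEG3 0.518 and PEG10 0.487. GRB10, SNRPN and PHLDA2 had 0.278, 0.142 and 0.0711 with those. The part of tissue composition in the falls of MEST, PEG10 and MEG3, and in the gene lists described next, was not tested.

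Other imprinted genes were followed as a list of 55, of which 49 were in the table and 39 were tested in endometrium. In P-HF against NP-HF 4 rose and 7 fell, where 10.2% of all genes rose and 10.6% fell. The median log2 fold change of the 39 was -0.17. SGCE, the sarcoglycan gene that shares an imprinting control region with PEG10, went from 42.7 ± 7.27 to 19.7 ± 4.98 CPM (SD, n = 5 each) and fell by 1.12 ± 0.15 on the log2 scale (SE, adjusted p = 1.7e-05, edgeR). H19, the maternally expressed non-coding RNA next to IGF2, went from 378.7 ± 109.9 to 111.2 ± 46.2 CPM and fell by 1.77 ± 0.25 (SE, adjusted p = 2.4e-05, edgeR). MAGEL2 and NDN, paternally expressed neighbours in the region of SNRPN, fell by 1.42 ± 0.25 and 0.75 ± 0.14 (SE, adjusted p = 0.00031 and 0.00066, edgeR). All 4 kept their call in every alternative. IGF2 itself had a log2 fold change of -0.41 ± 0.15 (SE, adjusted p = 0.058, edgeR) and was looked up after its neighbour's value was seen.

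In SF heifers 1 of these 39 genes rose and 1 fell with pregnancy, and their median log2 fold change was -0.11. Over all genes 3.18% rose and 0.887% fell there. H19 went from 339.3 ± 75.5 CPM in NP-SF to 160.6 ± 26.1 CPM in P-SF (SD, n = 5 each) and fell by 1.08 ± 0.25 on the log2 scale (SE, adjusted p = 0.01, edgeR), in every alternative too. CD81, a tetraspanin, rose by 0.53 ± 0.15 (SE, adjusted p = 0.05, edgeR), at the edge of the threshold. It lost its call in 14 of 16 alternatives, among them limma-voom, no filter on low counts and the fit without P-HF replicate 1 and P-SF replicate 5 (0.34, adjusted p = 0.095). SGCE was at 42.3 ± 4.36 CPM in NP-SF and 30.3 ± 5.58 CPM in P-SF, with an adjusted p of 0.078.

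Genes that set or keep imprints were a list of 26, of which 22 were tested. In P-HF against NP-HF 1 rose and 4 fell, where 10.2% of all genes rose and 10.6% fell, and the median over the 22 was -0.09. TET1, which oxidises 5-methylcytosine, went from 36.1 ± 6.40 to 16.5 ± 2.94 CPM (SD, n = 5 each) and fell by 1.13 ± 0.17 on the log2 scale (SE, adjusted p = 6.3e-05, edgeR). DNMT3A, a de novo DNA methyltransferase, and CTCF, an insulator protein that binds imprinting control regions, fell by 0.29 ± 0.08 and 0.17 ± 0.05. CTCF lost its call in 8 of 16 alternatives, among them leaving out NP-HF replicate 1, 2 or 3 or P-HF replicate 2, 3 or 5, while TET1, DNMT3A and SMCHD1 kept theirs in all 16. SMCHD1, a chromatin protein of silenced alleles, rose by 0.29 ± 0.08 (SE). In P-SF against NP-SF 1 rose and 2 fell, where 3.18% of all genes rose and 0.887% fell, and the median log2 fold change was -0.07. SMCHD1 rose by 0.32 ± 0.08, and DNMT3A and the histone methyltransferase EHMT2 fell by 0.30 ± 0.08 and 0.32 ± 0.08. None of these 3 SF calls held without P-HF replicate 1 and P-SF replicate 5, where the adjusted p was 0.066, 0.13 and 0.053.

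The pathways on which GRB10, DLK1 and CDKN1C act were followed by lists as well, again beside 10.2% of all genes rising and 10.6% falling in P-HF against NP-HF. Of 12 insulin receptor adaptors and effectors, 2 rose in P-HF against NP-HF and 0 fell, with a median log2 fold change of 0.13. These were GRB7, a paralog of GRB10, at 0.80 ± 0.14 and IRS2, a docking protein of the insulin receptor, at 0.77 ± 0.19 (SE, adjusted p = 0.00036 and 0.0057, edgeR). Of 13 NOTCH pathway genes the ligand JAG1 fell, by 0.48 ± 0.14, and the median was -0.05. JAG1 lost its call in 3 of 16 alternatives, which were the fit of these groups alone and leaving out NP-HF replicate 2 or P-HF replicate 4. Of 13 cyclin-dependent kinase inhibitors and G1 cyclins with their kinases, 2 rose and 2 fell, with a median of -0.05. CCND3, a D-type cyclin, rose by 0.94 ± 0.14 and CDKN1A, a relative of CDKN1C, by 0.92 ± 0.19 (SE, adjusted p = 5.1e-05 and 0.0014, edgeR). CCND1 fell by 0.51 ± 0.18 and CDK4 by 0.25 ± 0.08, but CCND1 lost its call in 11 of 16 alternatives, each left-out library of these groups among them, and CDK4 in 8 of 16. Single libraries that ended the call of CDK4 were P-HF replicates 1, 2 and 5 and NP-HF replicates 3 and 4. In SF heifers 0 genes of these 3 lists passed for pregnancy, where 3.18% of all genes rose and 0.887% fell.

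Across the 25 endometrium libraries the members varied together in part. How often pairs among all genes do so was not counted, so the count below is not set against other genes. Of 28 pairs of members, 6 had a correlation of log2(CPM + 1) with an adjusted p under 0.05, all positive, by permutation with 100000 draws, two-sided and adjusted over the 28. MEG3 and MEST had Pearson's r = 0.758 (adjusted p = 0.00042) and Spearman's rho = 0.768 (adjusted p = 0.00028), and r was 0.83 without the 2 libraries farthest from the median of MEG3. After group means were removed r was 0.514 (adjusted p = 0.22). MEG3 and CDKN1C had r = 0.744 (adjusted p = 0.00042), rho = 0.748 (adjusted p = 0.00028) and r = 0.644 without the 2 farthest. That pair was the only one of the 28 to pass within groups, with r = 0.714 (permutation, adjusted p = 0.0045). It did so although CDKN1C passed in no comparison of groups.

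The other 4 pairs were weaker. MEG3 and PLAGL1 had r = 0.598 and rho = 0.652 (permutation, adjusted p = 0.012 and 0.0047), 0.532 without the 2 farthest and 0.425 within groups (adjusted p = 0.35). MEST and PLAGL1 had r = 0.533 and rho = 0.572 (adjusted p = 0.034 and 0.023), 0.547 without the 2 farthest and 0.343 within groups (adjusted p = 0.39). PLAGL1 and CDKN1C had r = 0.517 and rho = 0.524 (adjusted p = 0.038 and 0.046), 0.596 without the 2 farthest and 0.411 within groups (adjusted p = 0.35). PEG10 and MEG3 had r = 0.60 (adjusted p = 0.012) but rho = 0.36 (adjusted p = 0.18), with 0.355 without the 2 farthest and 0.157 within groups, so that it rested on a few libraries. All of these pairs share their libraries and thus their tissue composition.

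**Figure D3:**
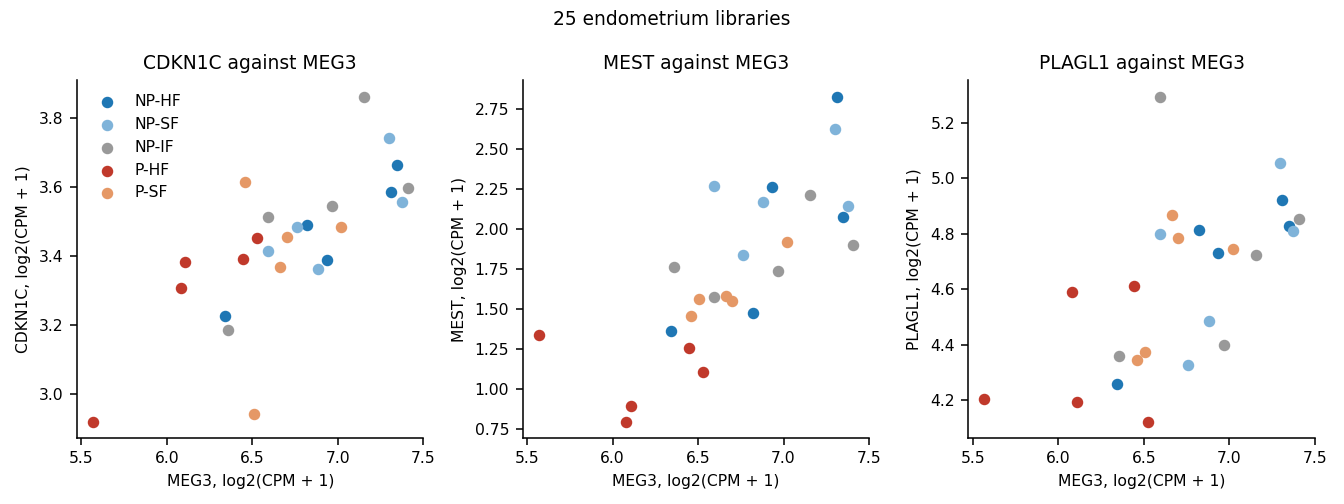
CDKN1C, MEST and PLAGL1 (vertical axes) against MEG3 (horizontal axes) in 25 endometrium libraries, all in log2(CPM + 1) and coloured by group. P-HF points lie at the left, at low MEG3, and CDKN1C follows MEG3 also among points of 1 colour (within-group r = 0.714).

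The genes most alike to each member over the 25 endometrium libraries were named by Pearson's r of log2(CPM + 1), as a description. MEG3 was most like SPON1 (r = 0.919), MXRA5 (r = 0.914) and COL16A1 (r = 0.912), all encoding extracellular matrix proteins. MEST was most like COL27A1-2 (r = 0.886), COL13A1 (r = 0.881) and WBP5 (r = 0.862). PEG10 was most like ZDHHC2 (r = 0.872), QPCT and GALNT16. CDKN1C was most like MXRA5 (r = 0.792), ZFR2 and GPSM1, and PLAGL1 was most like SLC8A1 (r = 0.818), WIPF1 and FRMD6. MXRA5 thus stood near both MEG3 and CDKN1C.

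**Figure D4:**
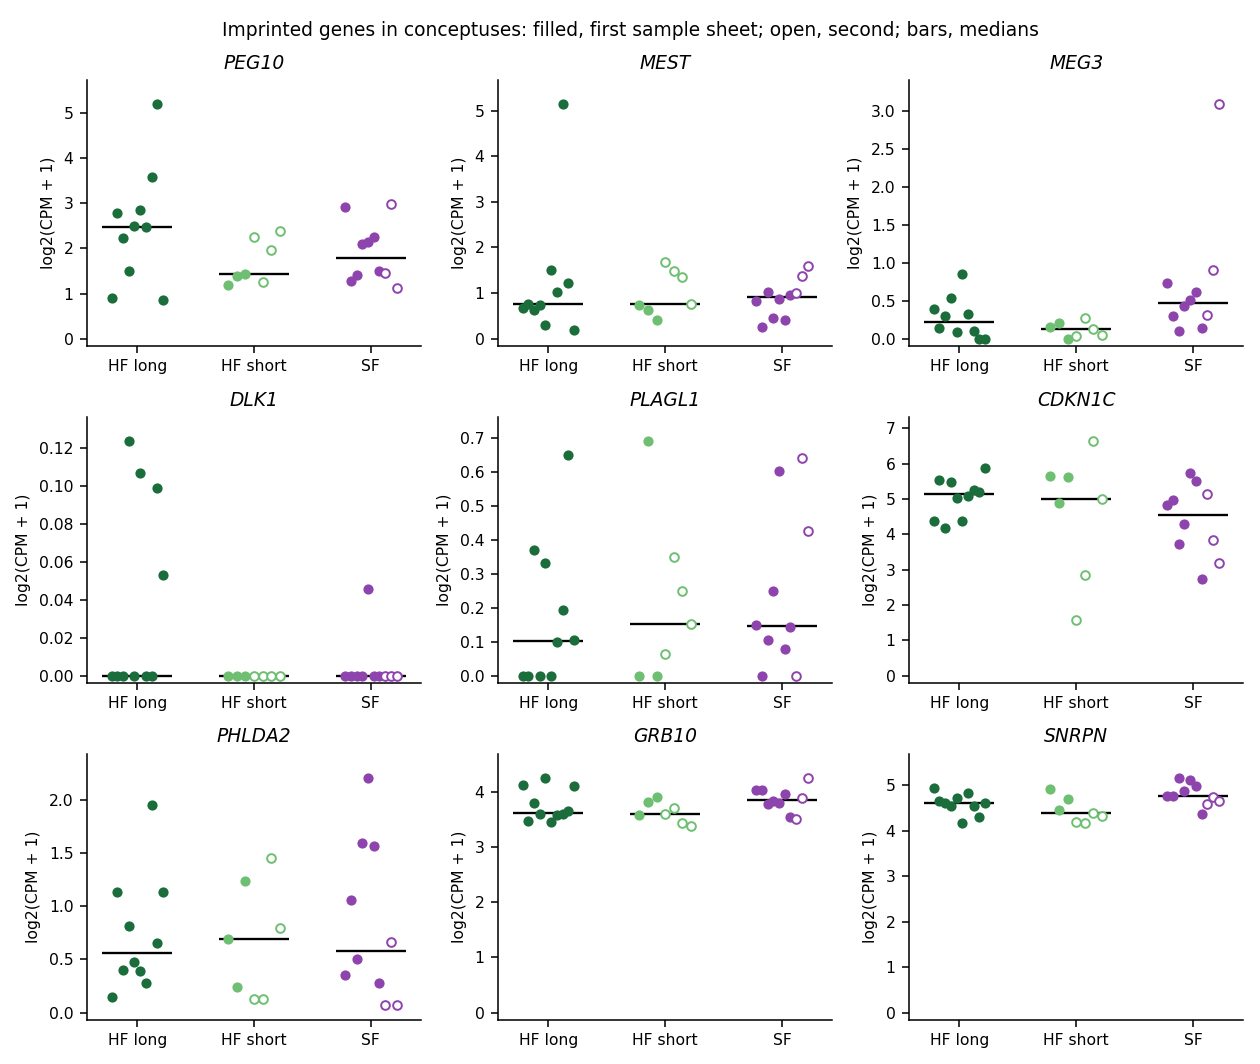
The 9 imprinted genes in 27 conceptuses as log2(CPM + 1), by group (10 HF long, 7 HF short, 10 SF). Filled points are on the first sample sheet and open points on the second, and bars are medians. One HF long library stands far above its group for MEST (34.5 CPM) and another for PEG10 (35.9 CPM), and 1 SF library does for MEG3 (7.54 CPM).

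In day 17 conceptuses the imprinted genes were spread more widely between libraries than in endometrium. CDKN1C had a coefficient of variation of 65.2% over 27 conceptuses against 15.7% over 25 endometrium libraries. It ran from 1.97 to 99.2 CPM in conceptuses (median 30.8) and from 6.57 to 13.54 CPM in endometrium (median 9.97). SNRPN and GRB10 were the steadiest in both tissues, with 19.9% and 19.5% in conceptuses and 10.9% and 12.8% in endometrium. RNA was extracted with different reagents, so levels in the tissues are set side by side here without a test. SNRPN was at a median of 24.1 CPM in conceptuses and 24.8 CPM in endometrium.

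Other members were low in conceptuses. MEG3 had a median of 0.206 CPM there and 103.0 CPM in endometrium, with 498 counts over all 27 conceptuses and 3 libraries at 0. PLAGL1 had a median of 0.104 CPM there and 25.4 CPM in endometrium, with 8 conceptus libraries at 0. PEG10 had medians of 3.28 and 32.4 CPM, and GRB10 of 12.8 and 72.7 CPM. DLK1 had 8 counts over all 27 conceptuses, and 22 of these libraries were at 0. PHLDA2 had medians of 0.5682 CPM in conceptuses and 0.392 CPM in endometrium.

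SF conceptuses were compared with HF long ones, and 1 of the 7 imprinted genes tested fell while none rose. Most SF conceptuses of stated length were shorter than every HF long one of stated length. Class of the recipient and size of the conceptus thus cannot be told apart in this comparison. Over all genes tested 5.1% fell and 3.8% rose in this comparison. PLAGL1 and DLK1 were too low to be tested. The gene that fell was MEST, by 2.75 ± 0.82 on the log2 scale (SE, n = 10 and 10, adjusted p = 0.037, edgeR). HF long libraries of MEST had a lowest value of 0.15, a median of 0.683 and a highest value of 34.5 CPM. SF libraries had 0.193, 0.889 and 2.004 CPM. The groups overlapped throughout, the SF median was the higher of the 2, and the SF library was higher in 52 of 100 pairs of libraries.

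The fall of MEST thus rested on HF long replicate 8, a conceptus of 17 cm, at 34.5 CPM where the next library of its group had 1.84 CPM. Without that library the log2 fold change was -0.35 (adjusted p = 0.63, edgeR). Without HF long replicate 9, or without SF replicate 2, 3, 4 or 6, it was between -2.88 and -2.62 with adjusted p of 0.052 to 0.074. The call was lost in 13 of 29 alternatives, among them DESeq2 (-0.37, adjusted p = 0.57), the fit without the sample sheet (-2.18, adjusted p = 0.08) and the first sheet only (-2.72, adjusted p = 0.094). With titles replaced by descriptions it was -2.06 (adjusted p = 0.42).

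PEG10 in HF long conceptuses had a lowest value of 0.823, a median of 4.59 and a highest value of 35.9 CPM, and in SF conceptuses it had 1.19, 2.55 and 6.89 CPM. Its log2 fold change was -1.38 ± 0.55 (SE, adjusted p = 0.11, edgeR), DESeq2 called it (-1.40, adjusted p = 0.049), and without HF long replicate 9 it was -0.60. HF long replicate 9 had 35.9 CPM where the next library of its group had 10.98 CPM. SNRPN had 17.0, 23.5 and 29.8 CPM in HF long and 19.6, 26.2 and 35.1 CPM in SF conceptuses. Its log2 fold change was 0.31 ± 0.11 (SE, adjusted p = 0.07, edgeR), with an adjusted p of 0.039 in DESeq2, of 0.027 without SF replicate 7 and of 0.034 without HF long replicate 1. The other 4 genes tested lay between -0.36 and 0.99.

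CDKN1C had a lowest value of 17.0, a median of 34.2 and a highest value of 57.3 CPM in HF long conceptuses. In SF conceptuses it had 5.63, 22.9 and 51.9 CPM, and in HF short ones 1.97, 30.8 and 99.2 CPM. The HF long range lay inside the HF short one, and the SF range reached lower than the HF long one. PHLDA2 had 0.104, 0.478 and 2.86 CPM in HF long, 0.0915, 0.613 and 1.73 CPM in HF short and 0.0472, 0.50 and 3.62 CPM in SF conceptuses. GRB10 had medians of 11.4, 11.2 and 13.53 CPM in HF long, HF short and SF conceptuses, within 9.49 to 18.2 CPM overall.

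In SF against HF short conceptuses 0 of the 7 tested passed, and 0.00612% of all genes did. MEG3 had 0.0756 to 7.54 CPM in SF conceptuses (median 0.383) and 0 to 0.206 CPM in HF short ones (median 0.0947). The SF library was higher in 63 of 70 pairs of libraries, and the lowest SF library had 2 counts. Its log2 fold change was 3.42 ± 0.90 (SE, p = 0.00074, adjusted p = 0.15, edgeR). DESeq2 called it (3.32, adjusted p = 0.022), and without SF replicate 10 it was 2.16 (adjusted p = 0.51). In HF short against HF long conceptuses 0 of 7 passed and 0% of all genes did, where 599 genes had an unadjusted p under 0.05 and DESeq2 called 2 genes. MEST, MEG3 and PEG10 had log2 fold changes of -2.89 ± 1.04, -2.43 ± 0.96 and -1.97 ± 0.74 there (SE, adjusted p = 0.93 each, edgeR). Without HF long replicate 8 MEST was at -0.49, and without HF long replicate 9 PEG10 was at -1.19. Medians of MEST were 0.702 CPM in HF short and 0.683 CPM in HF long conceptuses.

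**Figure D5:**
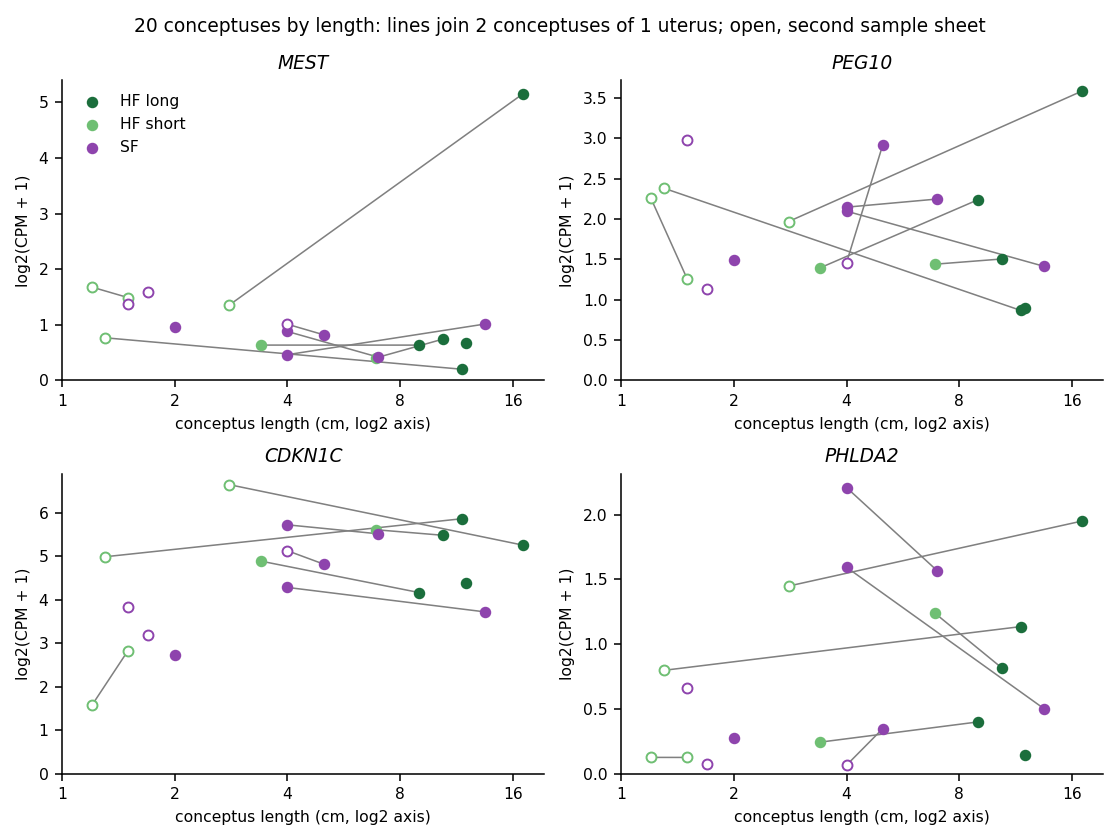
MEST, PEG10, CDKN1C and PHLDA2 as log2(CPM + 1) against conceptus length (cm, log2 axis) in the 20 conceptuses with a stated length. Colours give the group, open points are on the second sample sheet, and lines join 2 conceptuses of 1 uterus. The high MEST point is the 17 cm conceptus, and CDKN1C is lowest in conceptuses of 1.2 to 2 cm (1.97 to 8.18 CPM in 4 of them).

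Length was stated for 20 conceptuses, from 1.2 to 17 cm. In a fit of log2 length with the sample sheet 0 of 8 imprinted genes passed, and 0% of all genes did, with 1905 at an unadjusted p under 0.05 and 52 called by DESeq2. MEST had a slope of 1.35 ± 0.40 log2 units per doubling of length (SE, adjusted p = 0.29, edgeR). Its slope was -0.17 without the 17 cm conceptus. CDKN1C had a slope of 0.63 ± 0.35 (SE, p = 0.082, edgeR). The conceptuses of 1.2, 1.7 and 2 cm had 1.97, 8.18 and 5.63 CPM of CDKN1C, those of 1.5 cm had 6.13 and 13.3 CPM, and the one of 1.3 cm had 30.8 CPM. At 2.8 cm it was 99.2 CPM, and from 3.4 to 17 cm it was 12.2 to 57.3 CPM. Trophoblast markers were also lowest in the conceptuses of 1.2, 1.5 and 1.7 cm, whose 4 sums were 21260 to 31760 CPM, while the conceptuses of 1.3 and 2 cm had 59060 and 65330 CPM. Those 4 were all on the second sample sheet, and the HF short ones of 1.2 and 1.5 cm shared a recipient. No conceptus with a stated length below 2 cm was on the first sheet, so length and sheet cannot be told apart there. Over the 27 conceptuses CDKN1C had r = 0.781 with the trophoblast, r = 0.744 with the smooth muscle and r = -0.593 with the epiblast markers. These values are a description over libraries that share tissue make-up, and the part of these cells was not tested.

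For 8 recipients the 2 conceptuses of 1 uterus could be compared, so that both had the same uterine surroundings. With sheet and recipient in the fit, the fitted values rested on the 5 pairs whose libraries were on 1 sample sheet. In the remaining pairs, that of the 17 cm conceptus among them, the longer conceptus was on the first sheet and the shorter on the second. The sheet term takes up the mean difference of those pairs. None of the 6 genes tested passed, and 0% of all genes did, with 335 at an unadjusted p under 0.05 and 2 called by DESeq2. Their log2 fold changes of longer against shorter lay between -0.78 and 0.15. CDKN1C was higher in the shorter conceptus in 6 of 8 pairs, and in 4 of the 5 pairs whose libraries were on 1 sample sheet. With the sheet in the fit its log2 fold change was -0.05 ± 0.35 (SE, adjusted p = 1, edgeR). At the widest gap in cm, between libraries of different sheets, the 17 cm conceptus had 37.3 CPM and its 2.8 cm partner 99.2 CPM. In the same pair MEST was at 34.5 and 1.56 CPM and PEG10 at 10.98 and 2.91 CPM. By ratio of lengths the widest pair was HF long replicate 10 with HF short replicate 7, also of different sheets. There each of these genes differed in the opposite direction. CDKN1C was at 57.3 and 30.8 CPM, MEST at 0.15 and 0.702 CPM and PEG10 at 0.823 and 4.21 CPM. MEST was higher in the shorter conceptus in 5 of 8 pairs. PEG10 was higher in the longer conceptus in 5 pairs and in the shorter one in 3, and PHLDA2 was so in 4 and 4.

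Over the 19 recipients, with pairs averaged, 0 of 21 pairs of members had an adjusted p under 0.05 for Pearson's r. PHLDA2 and CDKN1C, which lie close together in 1 imprinted cluster, had r = 0.628 (permutation p = 0.0045, adjusted p = 0.094) and rho = 0.677 (permutation p = 0.0017, adjusted p = 0.037). Without the 2 recipients farthest from the median r was 0.562.

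Among all genes tested over the 27 conceptuses, CDKN1C was most like SLC37A1 (r = 0.906), TRADD (r = 0.859) and TRIM25 (r = 0.848), and without its highest library r with SLC37A1 was 0.912. MEST was most like IGFBP5, ACSM2B and CPA4 (r = 0.888, 0.885 and 0.885). Those values were 0.441, 0.349 and 0.396 without HF long replicate 8, where these genes were at 19.6, 8.83 and 23.6 CPM against medians of 0.25, 0.187 and 0.118 CPM. MEG3 was most like ITGA2B (r = 0.877), RTL1 (r = 0.876) and LOC536342 (r = 0.819), and without SF replicate 10 these were 0.501, 0.699 and 0.524. RTL1, the retrotransposon-like neighbour of MEG3, was at 5.96 CPM in that library and at a median of 0.284 CPM. PEG10 was most like GLDC (r = 0.796), ENC1 (r = 0.785) and SIPA1L1 (r = 0.782), and PHLDA2 was most like BHLHE40 (r = 0.777), LOC100296173 and CD44.

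In SF against HF long conceptuses, where 3.8% of all genes rose and 5.1% fell, some genes of the wider lists were called, and each list's count was 0 in at least 1 alternative. For these lists and the tissue markers too, class of the recipient and size of the conceptus cannot be told apart. Of 36 other imprinted genes tested 2 rose and 3 fell, with a median log2 fold change of 0.05. DLX5, a homeobox gene, went from 10.36 ± 2.92 CPM in HF long to 4.27 ± 1.695 CPM in SF conceptuses (SD, n = 10 each) and fell by 1.39 ± 0.28 on the log2 scale (SE, adjusted p = 0.0093, edgeR). PPP1R9A, the neighbour of PEG10, had a lowest value of 2.88, a median of 16.5 and a highest of 103.9 CPM in HF long and 2.14, 3.56 and 15.6 CPM in SF conceptuses, and fell by 2.68 ± 0.60 (SE, adjusted p = 0.011, edgeR). BLCAP fell by 0.29 ± 0.09, and CD81 rose by 0.76 ± 0.24. Of 21 genes that set or keep imprints 0 rose and 2 fell, KDM1B by 0.41 ± 0.11 and TET3 by 0.82 ± 0.22, and the median was -0.15.

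Of 11 insulin receptor adaptors and effectors 1 rose and 3 fell, with a median log2 fold change of -0.14. IRS1, a docking protein of the insulin receptor, fell by 1.67 ± 0.37 (SE, adjusted p = 0.011, edgeR), and SHC1 and GRB7 by 0.46 ± 0.11 and 0.75 ± 0.23. The ubiquitin ligase NEDD4 rose by 0.88 ± 0.26. Of 13 NOTCH pathway genes 4 fell and 0 rose, with a median of -0.38. They were the ligands DLL1 (1.34 ± 0.29 lower) and JAG1, the receptor NOTCH2 and DLK2, the paralog of DLK1. Of 12 genes of the cyclin-dependent kinase list CCND1 rose, by 2.13 ± 0.67, and the median was 0.07. All 15 genes named from these lists for this comparison lost their call when samples were identified by description, and all of them but DLX5 also lost it without HF long replicates 8 and 9. Of 10 stromal markers 4 fell in SF against HF long conceptuses, with sums of 124.2 to 266.4 CPM in HF long (median 155.9) and 80.4 to 350.2 CPM in SF conceptuses (median 223.6). Of 13 trophoblast markers 4 fell as well, GATA3, HAND1, GATA2 and TFAP2C, with sums of 59010 to 86020 CPM in HF long and 26880 to 91750 CPM in SF conceptuses. None of 4 epiblast markers tested passed, and their sums had medians of 39.0 and 100.3 CPM. The part of these markers in the values above was not tested.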

How the data were processed

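Messenger RNA libraries of endometrium and conceptuses were made with a strand-marking kit after RNA extraction with different reagents, per the labels' protocols, so the tissues were not tested against each other. The authors deposited raw counts of reads for each gene, as whole numbers. HISAT2, StringTie, edgeR and build UMD3.1 are named in the submitters' processing notes, and no source used here gives their versions or settings. Gene neighbours came from a table of assembly ARS-UCD2.0, where all 9 members matched. A total of 1020 lines with no gene name were left out.

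Columns were matched to samples by title. Genes were filtered with filterByExpr (minimum count 10, minimum total 15), scaled by TMM and tested with edgeR's quasi-likelihood test (edgeR 4.0.16, limma 3.58.1, R 4.3.3) with Benjamini-Hochberg adjustment over all genes tested: 19606 in endometrium (25 libraries, 5 groups), 16330 in conceptuses (27 libraries, 3 groups and sample sheet), 17196 for length and 15337 for pairs of 1 uterus (recipient and sheet as terms). Calls needed an adjusted p below 0.05. The SE of a log2 fold change was derived from its test. The deposited counts were turned into CPM with TMM scaling. The test was checked on simulated data. Pairs of libraries within groups differed beyond sampling noise (chi-square per degree of freedom 18.3 or more), so none was taken for a repeat. Each endometrium library is 1 animal.

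Recipient pairs come from the labels: deviations of the 2 conceptuses of 1 animal correlated with r of -0.08 to 0.74 over 8 pairs. Alternatives were other scalings, no filter, DESeq2 1.42.0, limma-voom, other covariates, identity by description and leaving libraries out. Members and lists were chosen with earlier results of these data known. Of each list up to 4 called genes per comparison with the smallest p were named, and for each member up to 3 genes with the largest correlation. Leaving out P-HF replicate 1 with P-SF replicate 5, and HF long replicates 8 with 9, was added after seeing the data. Lists of trophoblast, epiblast, stromal, uterine epithelial, endothelial, smooth muscle, immune and uterine cell transcripts were summed as checks of tissue.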

Additional observations from a re-analysis of the deposited data

Results flagged for a closer look

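In 5 of the 57 groups checked, 1 library stood apart from the others of its group by its gap relative to the group's range. Chance flags about 1 in 20 groups if values are normally distributed, and more if they are skewed, as many CPM values in conceptuses were. The 5 flags are thus not read as more than chance gives. HF long replicate 8 was at 34.51 CPM for MEST where the nearest library of its group had 1.845 CPM, and at 2.861 CPM for PHLDA2 where the nearest had 1.197 CPM. That library had 62280 CPM of trophoblast markers and 187.8 CPM of stromal markers, within the ranges of its group. It had the highest uterine epithelial sum of its group, 5191 CPM where the nearest had 4084 CPM. That sum was 2219 to 5414 CPM in conceptuses and only 790.1 to 1612 CPM in endometrium. Its level alone therefore cannot tell uterine cells in a conceptus, and their part in it was not tested. HF long replicate 9 was at 35.9 CPM for PEG10 where the nearest had 10.98 CPM, and it had the highest stromal sum of its group, 266.4 CPM. SF replicate 10 was at 7.542 CPM for MEG3 where the nearest SF library had 0.8761 CPM, and its epiblast markers summed to 147.4 CPM in a group of 40.8 to 228.1 CPM. In endometrium P-SF replicate 2 was at 2.78 CPM for MEST where the nearest P-SF library had 1.993 CPM. Whether tissue composition has a part in these values was not tested.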

How the results depend on the processing

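Of 91 fold changes and slopes of members, 4 were called, and 42 changed sign in at least 1 alternative, none of them called. MEST in SF against HF long conceptuses was the 1 call lost, and 3 values gained a call.

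The number of members called in SF against HF long conceptuses was 1. It was 2 with DESeq2 and 0 with limma-voom, without the sample sheet, on the first sheet only, by description, with counts summed per recipient, and without HF long replicates 8 and 9. Leaving out 1 library gave 0 to 2. In SF against HF short conceptuses it was 0, and 1 with DESeq2. PLAGL1 in P-SF against NP-SF ranged from -0.17 to 0.021 when 1 library was left out, the latter without NP-SF replicate 2. By description MEG3 in HF short against HF long was 0.29 and the slope of MEST on length -0.18, and without 1 library that slope ran from -0.17 to 1.79. The cause was not tested.

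With the recipient as a replicate block 0 members were called in HF short against HF long and for length (PEG10 -0.69, MEST -0.51, slope of MEST 0.38), and without the block 0 were called within a uterus. None of these comparisons had a call with or without the block, so it tested no call. In HF short against HF long, the values with the block rested on the mixed pairs on 1 sheet. These were HF long replicate 3 with HF short replicate 2 and HF long replicate 4 with HF short replicate 3.

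Over all genes, counts moved by more than 1.5 times as follows. In P-SF against NP-SF 798 became 1210 with DESeq2, 425 without P-SF replicate 5 and 508 without that library and P-HF replicate 1. The interaction had 1, with 3 for DESeq2 and 45 without both. In P-SF against P-HF 0 became 95 with DESeq2, 13 without P-HF replicate 1, 116 without P-SF replicate 5 and 634 without both. Leaving out both was chosen after these libraries were seen to lie with the other fertility class. Counts without both can thus rise through that choice alone in this comparison and in the interaction, and no class difference is drawn from them. In SF against HF long 1454 became 2217 with DESeq2, 934 with limma-voom, 837 with recipient sums, 162 without HF long replicates 8 and 9, 629 at the least without 1 library (HF long replicate 9) and 0 by description. In SF against HF short 1 became 13 with DESeq2 size factors, 125 with DESeq2, 19 without the sheet and 0 to 47 without 1 library. The slope on length had 0, with 3 unfiltered, 52 for DESeq2 and 400 without the sheet. Depth limits DLK1, PHLDA2 in endometrium and MEG3 and PLAGL1 in conceptuses, which had few counts.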
